A study of Danio rerio with 9 samples.

Results

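The comparison set glia of the peripheral nerves against glia of the central nervous system in zebrafish trunks at 72 hours post fertilization. It used 6 of the 9 RNA sequencing libraries of the series, chosen by their titles: 3 of Schwann cells and 3 of oligodendrocyte lineage cells. Schwann cells were sorted as double positive cells from AB* fish with the Gt(foxd3:mCherry) gene trap and the Tg(sox10:mEGFP) transgene. Oligodendrocyte lineage cells were sorted as double positive cells from AB* fish with Tg(olig2:dsred) and Tg(sox10:megfp). The 3 libraries of neurons, from AB* Tg(nbt:dsred) fish, served as background. Each library came from 1750 ± 750 sorted cells. Both glial groups shared a sox10 reporter.

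Schwann cells arise from the neural crest, migrate along axons and wrap peripheral nerves, and in zebrafish they need ErbB signalling to do so. Oligodendrocyte precursors arise in the ventral spinal cord from progenitors that express olig2, which also give rise to motor neurons, and their progeny myelinate axons of the brain and spinal cord. The transcription factor sox10 is active in both lineages, while foxd3 marks neural crest and its glial derivatives. The promoters limit what each sort can hold: sox10 and foxd3 are also active in other neural crest derivatives, and the olig2 gate takes precursors and differentiating oligodendrocytes together. The tables name transcripts by ID, and 0 of 52216 IDs matched the gene tables used here. The sort genes and the markers of these cell types were therefore not analysed here, and the labels were not checked against markers. In bulk samples, fewer cells of a type and less RNA per cell cannot be told apart, nor can the cell type and the transgenic line it was sorted from.

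Schwann cells replicates 1 to 3 held 8502028, 7123251 and 11191844 estimated counts in all, against 14572760, 15266878 and 11869510 in the oligodendrocyte lineage. Every Schwann cell library was thus shallower than every oligodendrocyte lineage library (exact two-sided permutation p = 0.1, the smallest that 3 against 3 can give, 0.3 after Benjamini-Hochberg adjustment over 3 such tests). Abundant transcripts were at times missing from a replicate. Among transcripts at 20 CPM (counts divided by a library's scaled total) or more in the other 2 Schwann cell libraries, replicate 1 held no counts for 8.93%, replicate 2 for 13.2% and replicate 3 for 2.55%. The shares in the oligodendrocyte lineage were 1.41%, 2.40% and 9.39%. Schwann cells replicates 1 and 2 and oligodendrocyte lineage replicate 3 therefore stood apart from the other glial libraries. A transcript without counts in 1 library cannot be taken as silent in those cells.

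Most called differences between the glial groups were in transcripts that were abundant in all libraries of one group and nearly absent from the other. Of 23408 transcripts tested with edgeR's quasi-likelihood test over all 9 libraries, 186 (0.795%) were called at an adjusted p under 0.05. Of these, 53 (0.226%) were higher and 133 (0.568%) lower in Schwann cells. The lower group averaged under 1 CPM for 44 of the 53 and for 115 of the 133. Only 8 of the 53 and 5 of the 133 had at least 10 CPM in the lower group. Graded differences between transcripts present in both glial types thus made up a small part of the calls. A fitted log2 fold change under 4 in size was found for 5 of the 53 and 2 of the 133. This describes the calls and not all differences between the groups. The median mean level in Schwann cells of the 53 was 145 CPM, with 0.0909 CPM in the oligodendrocyte lineage. For the 133 the medians were 0.0786 CPM in Schwann cells, against 142 CPM in the other group. The 53 took 2.60% to 2.88% of the counts of a Schwann cell library and 0.358% to 0.401% in the oligodendrocyte lineage. The 133 took 0.161% to 0.224% in Schwann cells and 3.98% to 4.81% in the oligodendrocyte lineage. These levels chose the calls and are given as a description.

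**Figure D1:**
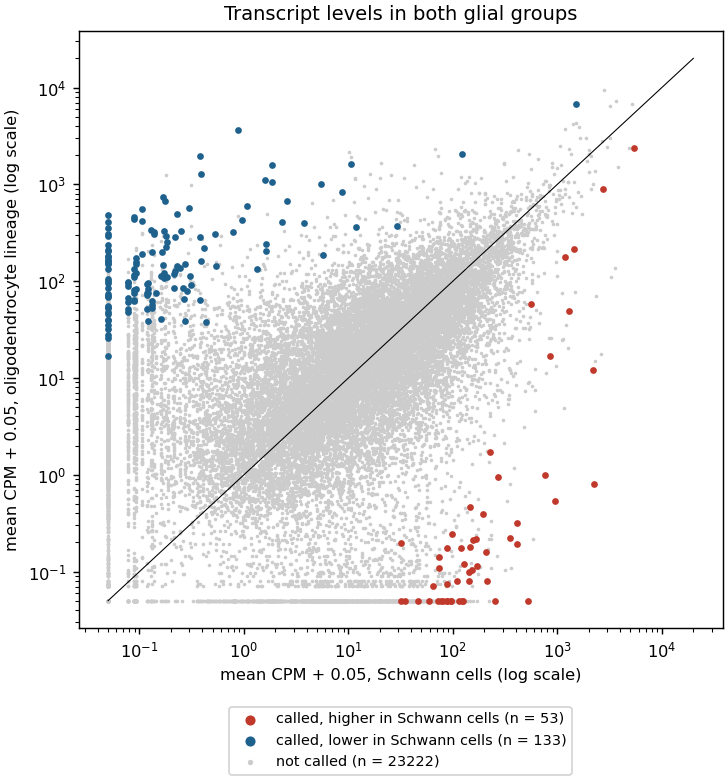
Mean TMM-normalised CPM of each of the 23408 tested transcripts in Schwann cells (horizontal) and the oligodendrocyte lineage (vertical), each with 0.05 added, on log axes; the line marks equal levels. Most of the 53 and 133 called transcripts lie far from the line, at the low end of the scale of the group in which they averaged under 1 CPM.

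The share called by edgeR after adjustment was larger among more abundant transcripts, while unadjusted and DESeq2 shares did not follow that order. Among transcripts whose higher glial group averaged up to 5 CPM, 0 of 5407 were called by edgeR, although 14.8% had an unadjusted p under 0.05. In that bin DESeq2 called 337, voom 3 and limma on log2(TPM + 1) 35. The share was 0.0149% between 5 and 20 CPM, 0.352% between 20 and 50, 1.69% between 50 and 100, 2.63% between 100 and 300 and 7.42% above 300 CPM, where 52 of 701 were called. Over the same 5 bins the share with an unadjusted p under 0.05 was 19.8%, 16.5%, 14.4%, 15.2% and 38.2%. DESeq2 called 18.95%, 16.5%, 14.9%, 13.97% and 25.1% of them, and voom 1.09%, 2.55%, 4.12%, 4.42% and 11.3%. Without adjustment, 1487 transcripts (6.35%) were higher in Schwann cells and 2517 (10.8%) lower. All Schwann cell libraries lay above all oligodendrocyte lineage libraries for 1331 transcripts (5.69%) and below them for 2618 (11.2%). Both directions together made 16.9%. With 3 libraries against 3, exchangeable libraries separate fully in either direction with a probability of at most 0.1. Part of these counts can therefore be chance separations.

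The 4 transcripts printed here were the most abundant in their direction among called transcripts whose counts were whole numbers in every library, so that none of their counts had been divided with another transcript by a visible fraction. ENSDART00000043298.7, of 1699 bases, was at 5317, 4307 and 6464 CPM in Schwann cells, against 2438, 2272 and 2367 CPM in the oligodendrocyte lineage. It was at 1845, 1666 and 2092 CPM in neurons. The glial groups did not overlap, as the choice of all 4 required. Its mean of 5363 ± 1079 CPM was the highest of any transcript in Schwann cells. This was 2.27-fold the mean of the oligodendrocyte lineage, at 2359 ± 83.4 CPM (SD, n = 3 each). Its fitted log2 fold change was 1.19 (SE 0.206, edgeR adjusted p = 0.0398). It differed in degree, being also the transcript of rank 17 in the oligodendrocyte lineage.

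ENSDART00000022348.7, of 2541 bases, was abundant in Schwann cells and nearly absent from the oligodendrocyte lineage. It was at 2376, 2484 and 1802 CPM in Schwann cells, from 20149, 19063 and 21864 counts. The oligodendrocyte lineage had 1.48, 0.245 and 0.532 CPM, from 21, 4 and 6 counts. Neurons had 9.32, 0.0918 and 0.166 CPM, so that it was near 0 in 2 of 3 neuron libraries as well. Its mean was 2945-fold higher in Schwann cells, at 2221 ± 366 CPM against 0.754 ± 0.649 CPM (SD, n = 3 each), with a log2 fold change of 11.51 (SE 2.06, edgeR adjusted p = 0.0443). It ranked 18th in Schwann cells by mean CPM.

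In the opposite direction, ENSDART00000060006.4, of 1684 bases, was at 1.06, 0.652 and 0.742 CPM in Schwann cells, from 9, 5 and 9 counts. The oligodendrocyte lineage had 2918, 3997 and 4123 CPM, and the transcript ranked 10th there. Neurons had 4.18, 0 and 12.4 CPM. The mean in Schwann cells, 0.818 ± 0.215 CPM, was 4497-fold lower than the 3680 ± 662 CPM of the oligodendrocyte lineage (SD, n = 3 each). The log2 fold change was -12.12 (SE 1.91, edgeR adjusted p = 0.0313).

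ENSDART00000049992.4, of 2294 bases, was at 0, 0.130 and 0.247 CPM in Schwann cells, from 0, 1 and 3 counts. The oligodendrocyte lineage had 317, 580 and 1112 CPM, and the highest of these libraries was replicate 3. Neurons had 39.1, 16.7 and 27.7 CPM, above every Schwann cell library and below every oligodendrocyte lineage library. The log2 fold change was -12.21 (SE 1.35, edgeR adjusted p = 0.0141).

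**Figure D2:**
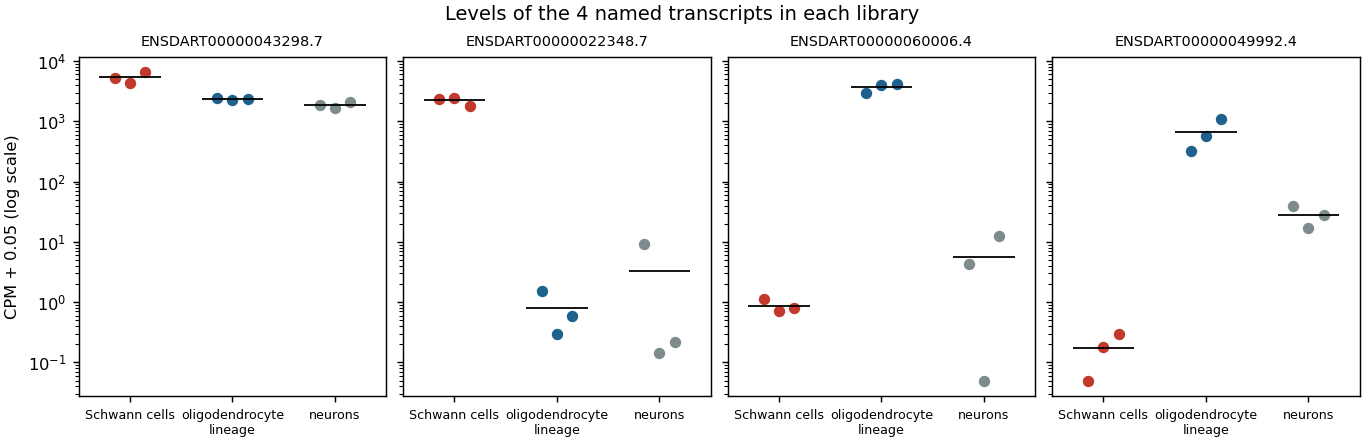
CPM with 0.05 added, on a log axis, of the 4 named transcripts in each Schwann cell, oligodendrocyte lineage and neuron library (points) with the group mean (line). The glial groups do not overlap in any panel, as the choice of these transcripts required. Only ENSDART00000043298.7 is abundant in all 9 libraries.

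The calls of these 4 depended on which libraries were fitted. EdgeR's common coefficient of variation between replicates was 1.584 over all 9 libraries. By group it was lowest for neurons, at 1.204, against 2.044 for Schwann cells and 1.641 for the oligodendrocyte lineage. The p-values of the main fit thus rest on a spread that includes neurons, not on that of the glial libraries alone. The part of the lower neuron value in the calls was not tested. With only the 6 glial libraries fitted, on the same transcripts, edgeR called 7 (0.0299%), 3 higher (0.0128%) and 4 lower (0.0171%). ENSDART00000022348.7 (adjusted p = 0.0201) and ENSDART00000060006.4 (adjusted p = 0.000422) kept their calls there. ENSDART00000043298.7 (adjusted p = 0.175) and ENSDART00000049992.4 (adjusted p = 0.0829) did not.

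The number of calls moved with every library. On the same 23408 transcripts, edgeR called 20 higher and 37 lower without Schwann cells replicate 1, 42 and 88 without replicate 2, and 76 and 428 without replicate 3. Without oligodendrocyte lineage replicates 1, 2 and 3 the counts were 57 and 65, 0 and 1, and 9 and 14. With oligodendrocyte lineage replicate 2 left out, 3215 transcripts still had an unadjusted p under 0.05. Leaving out neurons replicate 1, 2 or 3 gave 4 and 9, 3 and 11, and 4 and 9. ENSDART00000049992.4 lost its call only without oligodendrocyte lineage replicate 2 in this set (adjusted p = 0.0614). ENSDART00000043298.7 kept its call only without Schwann cells replicate 2 (adjusted p = 0.036), ENSDART00000022348.7 only without Schwann cells replicate 3 or neurons replicate 1 (0.0451 and 0.0126), and ENSDART00000060006.4 only without neurons replicate 2 (0.00127). DESeq2 called 1301 higher (5.56%) and 2076 lower (8.87%), 14.4% in all, with 186 of the 186 edgeR calls among them. Limma voom with quality weights called 198 higher (0.846%) and 313 lower (1.34%), 2.18% in all, with 156 of the 186 among them.

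Replicates of the higher group were often far apart even for called transcripts. The ratio of the highest to the lowest library of the higher group had a median of 2.56 for the 53 and 2.82 for the 133. It exceeded 10 for 4 and 11 of them. Schwann cells replicates 1, 2 and 3 were the highest library for 22, 21 and 10 of the 53. Oligodendrocyte lineage replicate 3 was the highest for 70 of the 133, and replicates 1 and 2 for 31 and 32. The same counts over all tested transcripts are not given, so these need not be particular to the calls. Replicate 3 was also the oligodendrocyte lineage library with the largest share of missing abundant transcripts. Its part in the 133 calls was not tested, since leaving out any library also removes residual degrees of freedom.

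Most transcripts called by edgeR over all 9 libraries were also present in neurons. The neuron mean was at least 10 CPM for 52 of the 53 transcripts higher in Schwann cells and for 125 of the 133 lower ones. Among all tested transcripts this held for 54.3%, and among the 6172 tested transcripts over 50 CPM in a glial group for 90.4%. All 3 neuron libraries lay above all 3 libraries of the lower glial group for 51 of the 53 and for 123 of the 133. That glial group averaged under 1 CPM for 44 and 115 of them, so this follows largely from the choice of calls. No such count is given for all tested transcripts. The median neuron mean was 73.8 CPM for the 53 and 55.5 CPM for the 133. It was 53.4 CPM for the 6172 tested transcripts over 50 CPM in a glial group. In neurons the level exceeded that of the higher glial group for 6 of the 53 and 31 of the 133. This count is not given for all tested transcripts either, so it need not be particular to the calls. The shares of the calls with at least 10 CPM in neurons were thus near that of abundant transcripts in general. With DESeq2 they were 59.8% of the higher and 59.0% of the lower calls, and in the fit of the 6 glial libraries 66.7% of 3 and 50% of 4. The neuron libraries contributed to the estimate of the spread, so the neuron level and the call were not independent.

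**Figure D3:**
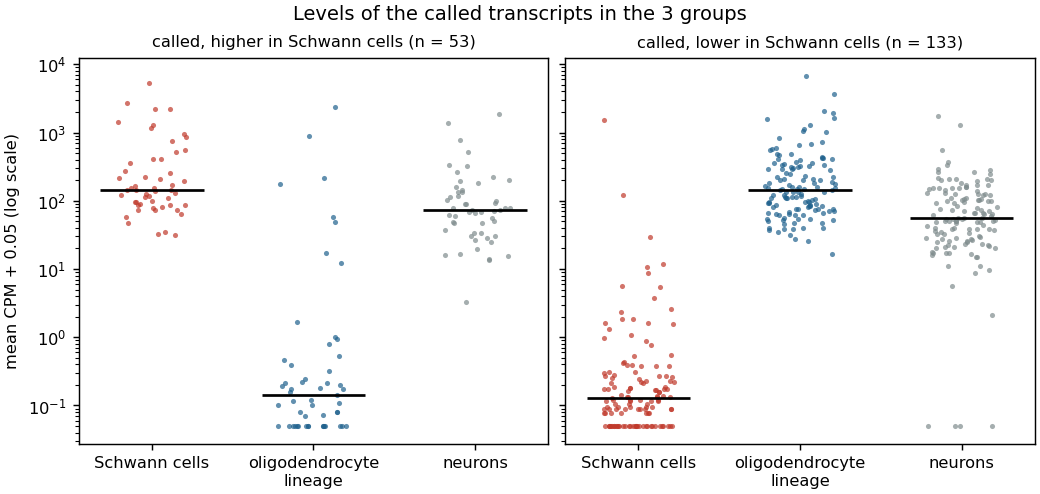
Mean CPM with 0.05 added, on a log axis, of the 53 transcripts called higher and the 133 called lower in Schwann cells, in Schwann cells, the oligodendrocyte lineage and neurons; each point is a transcript and lines are medians. Before the addition, the neuron medians were 73.8 and 55.5 CPM, against 145 and 142 CPM in the higher glial group.

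A count without any test gave another view of on and off transcripts, with limits set after the data were seen. At least 20 CPM in all 3 Schwann cell libraries and under 1 CPM in all 3 oligodendrocyte lineage libraries was found for 82 transcripts. The reverse, under 1 CPM in all Schwann cell libraries and at least 20 CPM in all oligodendrocyte lineage libraries, was found for 228. Some transcripts at 20 CPM or more in the other 2 libraries of a group also fell under 1 CPM in the remaining library. Their shares were 21.4%, 29.5% and 3.96% in Schwann cells replicates 1 to 3. In the oligodendrocyte lineage they were 3.75%, 4.74% and 20.4%. Such gaps between replicates limit what the counts of 82 and 228 show. Of the 82, 24 were at 20 CPM or more in all neuron libraries, 4 were under 1 CPM in all of them and 54 lay between. Of the 228, the numbers were 77, 14 and 137. Among the 82, edgeR called 23 of the 24 that were on in neurons, 0 of the 4 that were off and 12 of the 54 between. Among the 228 it called 65 of 77, 4 of 14 and 30 of 137. DESeq2 called all 4 and all 14 of those off in neurons, as did voom. Over the whole sets, DESeq2 called 80 of the 82 and 225 of the 228, and voom 65 and 157. All 82 and all 228 had an unadjusted edgeR p under 0.05. The rule picked these transcripts by the same levels, so such calls are no separate evidence. In the fit of the 6 glial libraries edgeR called 1 of the 82 and 2 of the 228. Transcripts on in a single glial group, and under 1 CPM in the other and in neurons, thus numbered 4 for Schwann cells and 14 for the oligodendrocyte lineage by this rule. The rule did not cover all calls: the 82 held 35 of the 53 higher calls, and the 228 held 99 of the 133 lower calls. It left out ENSDART00000022348.7, at 1.48 CPM in oligodendrocyte lineage replicate 1, and ENSDART00000060006.4, at 1.06 CPM in Schwann cells replicate 1.

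Detection was compared after each library was thinned to 7123174 counts, which equalised count totals but not the number of transcripts a library held. That number was 16664, 16110 and 22101 in Schwann cells and 23200, 21924 and 17691 in the oligodendrocyte lineage, so the groups overlapped (exact two-sided permutation p = 0.3, adjusted 0.4). In all, 33227 transcripts had at least 1 count in some glial library, and 7998 of them (24.1%) had counts in all 6. In Schwann cells, 34.8% of the 27005 detected transcripts were found in 1 library only and 38.0% in all 3. In the oligodendrocyte lineage, 28.2% of 28792 were found in 1 library only and 46.4% in all 3. Counts in all 3 Schwann cell libraries and none in the oligodendrocyte lineage were found for 275 transcripts, against 649 with none in Schwann cells and counts in all 3 oligodendrocyte lineage libraries. At the deposited depth these numbers were 233 and 726. Of the 233, 96 had counts in all 3 neuron libraries and 33 in none. Of the 726, the numbers were 319 and 88. In the group that held them, the median level was 15.0 CPM for the 233 in Schwann cells and 10.4 CPM for the 726. At these levels the gaps between replicates, up to 13.2% even for abundant transcripts, limit what a group without counts shows.

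**Figure D4:**
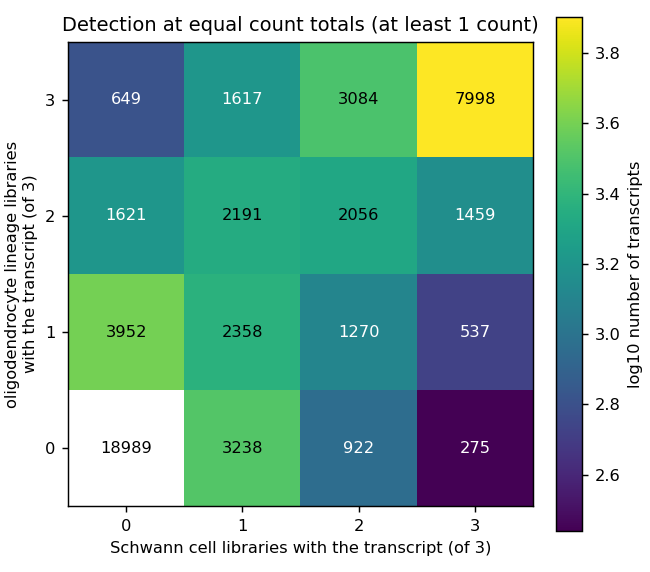
Number of transcripts by how many of the 3 Schwann cell libraries (horizontal) and of the 3 oligodendrocyte lineage libraries (vertical) held at least 1 count after thinning to equal totals; colour is the log10 number, and the cell without counts in either group is left uncoloured. The corner of 275 transcripts held by all Schwann cell libraries alone is smaller than the corner of 649 held by all oligodendrocyte lineage libraries alone.

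Abundant transcripts common to both glial types were compared next. At least 20 CPM in all 6 glial libraries was found for 1588 transcripts, which took 39.7% to 46.6% of the counts of a Schwann cell library and 36.7% to 45.2% of an oligodendrocyte lineage library. The group means of 825 of them (52.0%) lay within 1.5-fold of each other, and those of 385 (24.2%) differed by more than 2-fold, 246 higher and 139 lower in Schwann cells. Of the 385, 227 showed no overlap between the groups, which their choice by a difference of means makes likelier. Over all 1588 the groups did not overlap for 353 (22.2%), against 16.9% of all tested. EdgeR called 8 of the 1588 (0.504%), 6 higher and 2 lower, with 144 at an unadjusted p under 0.05. Among all 11005 tested transcripts whose higher glial group averaged over 20 CPM it called 185 (1.68%), but those include transcripts that are off in a group.

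The distance between libraries of different groups overlapped that between replicates, through the pairs with Schwann cells replicate 3. Across the 1588 transcripts, the median fold difference between a Schwann cell and an oligodendrocyte lineage library was 1.58 to 1.83 over 9 pairs. It was 1.52 to 1.73 between Schwann cell libraries and 1.41 to 1.59 between oligodendrocyte lineage libraries. The mean over pairs was 1.73 between groups, 1.62 within Schwann cells and 1.51 within the oligodendrocyte lineage. Pairs between groups without Schwann cells replicate 3 ran from 1.75 to 1.83, above every pair within a group. Schwann cells replicate 3 differed from the oligodendrocyte lineage libraries by 1.62, 1.58 and 1.65, and from Schwann cells replicates 1 and 2 by 1.52 and 1.61. Schwann cells replicates 1 and 2 differed from each other by 1.73, more than replicate 3 did from any oligodendrocyte lineage library. Requiring 20 CPM in every library kept out all transcripts that are off in a group, so these distances describe the common part of both transcriptomes only.

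**Figure D5:**
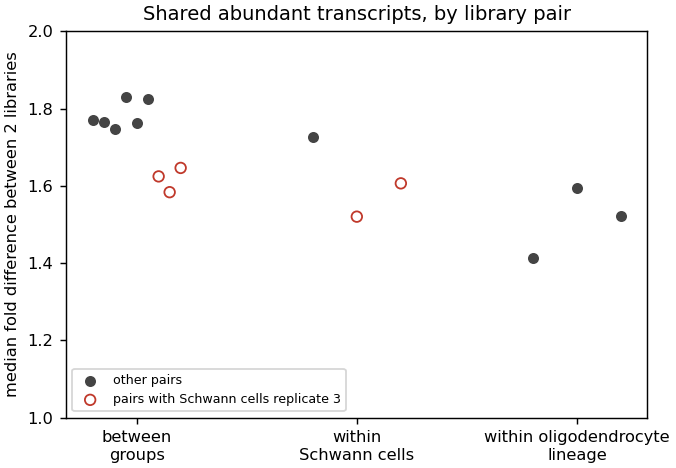
Median fold difference between 2 libraries over the 1588 transcripts at 20 CPM or more in all 6 glial libraries, for 9 pairs between the groups, 3 pairs within Schwann cells and 3 within the oligodendrocyte lineage; each point is a pair. Pairs between groups (1.58 to 1.83) overlap pairs within Schwann cells (1.52 to 1.73). The pairs between groups that overlap all include Schwann cells replicate 3, and open circles mark pairs with that replicate.

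The most abundant transcripts were ranked by mean TPM, which corrects for length. Of the 100 highest of Schwann cells, 51 were also among the 100 highest of neurons. For the 100 highest of the oligodendrocyte lineage this number was 53. The glial lists had 53 in common with each other, no more than with neurons for the oligodendrocyte lineage. Of these 53, 39 were also among the 100 highest of neurons. The other 47 of the Schwann cell list had a median of 1212 TPM in Schwann cells and 312 TPM in the oligodendrocyte lineage, where their median rank was 398. The other 47 of the oligodendrocyte lineage list had a median of 177 TPM in Schwann cells, where their median rank was 906, and 1403 TPM in the oligodendrocyte lineage. Within the first 500 ranks of the other glial group stood 27 of the 47 from the Schwann cell list and 18 of the 47 from the oligodendrocyte lineage list. Of these 47 each, 2 of the Schwann cell list were under 1 TPM in the oligodendrocyte lineage, and 4 of the oligodendrocyte lineage list were under 1 TPM in Schwann cells. EdgeR called 7 of the 100 of Schwann cells as higher there and 8 of the 100 of the oligodendrocyte lineage as lower in Schwann cells. Among the 701 tested transcripts over 300 CPM in a glial group, it called 15 higher and 37 lower. Both directions together made 7.42%, while each list count covers a single direction. The 701 were chosen by CPM, the lists by TPM.

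Transcripts higher in Schwann cells had a median length of 2857 bases, from 622 to 6555, and those lower a median of 2909 bases, from 539 to 12282. All tested transcripts had a median of 2264 bases, and those over 50 CPM in a glial group a median of 3056 bases. The medians of the calls thus lay above the first and below the second. The upper quartile was 3920 bases for the higher and 4714 bases for the lower calls.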

How the data were processed

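Per the labels' protocols, RNA was extracted with RNeasy Micro and libraries were made with a low-input Smartseq v4 kit. Per the file headers, the deposited tables hold a transcript length and an effective length in bases and an estimated count for each transcript ID. Tools named in the submitters' processing notes are RSEM 1.2.15, Bowtie2 2.1.0, Trimmomatic and FastQC, with the build danRer10. Which of them wrote the tables is not given in the sources used here. Such estimates divide reads between similar transcripts, and libraries without molecular identifiers hold PCR copies, so depth limits cover counting error only.

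Estimated counts were rounded to whole numbers. Transcripts passed filterByExpr by group (23408 kept, 28808 left out), libraries were scaled by TMM, and all 9 libraries entered a quasi-likelihood model whose sole term was the group, in R 4.3.3 with edgeR 4.0.16. The test was two-sided with Benjamini-Hochberg adjustment over all tested transcripts. Standard errors follow from the fold change and its F statistic. CPM are TMM-normalised, TPM were computed from the estimated counts and effective lengths, and whole numbers were taken within 1e-06. Alternatives used DESeq2 1.42.0 and limma 3.58.1. Exact permutation tests used SciPy 1.17.1. The labels do not tie replicates to separate clutches or sorts, so p-values reflect the spread between these samples, possibly technical.

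Named transcripts were, per direction, the 2 with the highest mean CPM in the higher group among calls with a fitted log2 fold change of 1 or more in size, no overlap between the glial groups and whole-number counts in all 9 libraries (15 and 38 were eligible). The libraries, rules and tests were chosen with earlier results of these data known.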

Additional observations from a re-analysis of the deposited data

How the results depend on the processing

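The counts of 53 higher and 133 lower calls depended on the fit, though not to the same degree in every setting. They were 49 and 107 with DESeq2 size factors in edgeR and 70 and 173 with no filter. Thinning to equal totals gave 48 and 126. They were 99 and 264 when 10 CPM were asked for in 3 or more libraries, 1301 and 2076 with DESeq2, 198 and 313 with limma voom with quality weights, and 298 and 589 with limma on log2(TPM + 1). They were 3 and 4 with only the 6 glial libraries on the same transcripts, and 2 and 4 with the filter applied to those 6. Only whole-number transcripts gave 16 and 36, of 4571 tested. Upper-quartile factors gave 42 higher and 65 lower calls and moved the share of higher calls to 39.3%, against 28.5% in the main scaling. The median log2 fold change of all tested transcripts was -0.205 with TMM, 0.105 with upper-quartile factors and -0.00912 with DESeq2 size factors. It was -0.0103 with DESeq2, -0.839 with voom, -0.349 with limma on log2(TPM + 1) and -0.586 with a block for the replicate number. Leaving out 1 library on the same transcripts gave -0.732 (without Schwann cells replicate 3) to 0 (without oligodendrocyte lineage replicate 1). The part of such offsets in the lower calls was not tested. Leaving out 1 library gave 0 to 61 higher and 1 to 318 lower calls with the filter applied anew, and 0 to 76 and 1 to 428 on the same transcripts. Leaving out oligodendrocyte lineage replicate 3 and Schwann cells replicate 2 at once, a choice made after seeing the data, gave 5 and 10. The cause was not tested.

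Deviations of same-numbered libraries of the glial groups from their group means correlated at -0.00267, -0.0167 and -0.0386. Between libraries of other numbers the values ran from -0.0199 to 0.0296. With 3 libraries a group, such values cannot exclude a pairing. Each same-numbered value was below the highest correlation of that Schwann cell library with a library of another number. With the replicate block, edgeR called 1 higher and 1 lower. The 4 named transcripts kept their direction in all 31 alternatives, as their choice makes likely, and had adjusted p of 0.05 or more in 21 (ENSDART00000043298.7), 16 (ENSDART00000022348.7), 19 (ENSDART00000060006.4) and 6 (ENSDART00000049992.4) of them. Their adjusted p ranged from 0.00424 to 0.175, from 3.27e-12 to 0.153, from 2.43e-13 to 0.308 and from 8.86e-20 to 0.108.

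The share of calls with at least 10 CPM in neurons was 98.1% of the higher and 94.0% of the lower calls. It was 59.8% and 59.0% with DESeq2, 68.7% and 72.5% with voom, and 66.7% and 50% with only the 6 glial libraries, over 3 and 4 calls. Among whole-number transcripts it was 87.5% of the higher calls. The median length of lower calls was 3647 bases with upper-quartile factors, 2450 with DESeq2, 2302 with voom and 2297.5 among whole-number transcripts, where that of higher calls was 2356. Counts in all libraries of a group and none of the other, 233 in Schwann cells alone and 726 in the oligodendrocyte lineage alone, were 93 and 373 at a minimum of 10 counts per library, 90 and 349 at 1 CPM and 60 and 140 among whole-number transcripts.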
